A study of Mus musculus with 2 samples.

Results

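Glycolysis turns glucose into pyruvate in the cytosol, and lactate dehydrogenase then interconverts pyruvate and lactate. Here 10 genes of these enzymes, *Hk1*, *Pfkm*, *Aldoa*, *Aldoc*, *Gapdh*, *Pgk1*, *Eno2*, *Pkm*, *Ldha* and *Ldhb*, are described out of 32285 genes in the count matrices. The set was defined by symbol, and all 10 symbols were found. The symbol *Aldoa* belonged to a pair of gene identifiers, of which ENSMUSG00000030695 (8074 UMIs in PS19 and 7672 in PZKO) was used, and ENSMUSG00000114515 (108 and 146 UMIs) was kept apart. Nuclei of the hippocampus of male mice aged 9 months were profiled by 10x Genomics 3′ RNA sequencing, in which unique molecular identifiers (UMIs) count captured RNA molecules. There was 1 library of PS19 mice with intact *Zbp1* (PS19) and 1 library of PS19 mice lacking *Zbp1* (PZKO). PS19 mice express mutant human tau under the mouse prion promoter, so both libraries carry the transgene and neither is from mice without it. The study's methods state that each library pooled hippocampi of 5 males, and elsewhere that individual animals were handled apart. The counts do not tell the mice apart, so no value below has a replicate check and no test between genotypes was made.

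After filtering, 9590 nuclei with 100729375 UMIs remained in PS19 and 9307 nuclei with 151995959 UMIs in PZKO, and the libraries shared 47 cell barcodes. *Zbp1* was read 92 times in PS19 and 38 times in PZKO, and whether these reads lie in the deleted part of the gene is not given in the sources used here. Nuclei formed 31 clusters, and classes were named from marker genes, so that each class name stands for nuclei like that cell type. The 11 named classes with at least 50 nuclei in each library were compared. Astrocyte markers had a median level in excitatory neurons of 1.15% and 1.02% of their level in astrocytes, and in oligodendrocytes of 5.94% and 4.61%. Gene positions are those of mm10. Levels are UMIs of a gene per 1000000 UMIs of a class (CPM), intervals in parentheses are exact 95% intervals for counting error only, and a pair of values without a label gives PS19 before PZKO.

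Glycolysis yields ATP, and several of its steps can be run by paralogs, related genes whose enzymes catalyse the same reaction with different kinetics. In brain, aldolase C (*Aldoc*) is known as an astrocyte enzyme and enolase 2 (*Eno2*) as the neuron-specific enolase. Lactate dehydrogenase is a tetramer of A and B subunits (*Ldha*, *Ldhb*), of which A-rich forms are classically tied to making lactate and B-rich forms to using it. Isoform use below means use of paralogs, since splice forms such as those of *Pkm* are not told apart in counts per gene.

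Several glycolysis genes are textbook targets of the hypoxia-inducible factors, whose core motif is ACGTG or GCGTG. The promoters of the lactate dehydrogenase pair and of *Eno2* are shown because they span the members' range in motif content and because both enzymes differ in paralog use between cell classes. Each is the 250 bases before a transcript start (RefSeq, GRCm38.p6), read 5′ to 3′ on the strand of the gene, with either motif on either strand in capitals and overlapping matches counted apart. Of the pair of *Ldha* windows, the one shown (chr7:46845554-46845803, plus strand) holds 5 matches and the other (chr7:46846832-46847081, plus strand) holds 1. Of the genes with a single window, the *Ldhb* window (chr6:142507958-142508207, minus strand) holds 1, and the *Eno2* window (chr6:124769674-124769923, minus strand) holds 0.
Ldha: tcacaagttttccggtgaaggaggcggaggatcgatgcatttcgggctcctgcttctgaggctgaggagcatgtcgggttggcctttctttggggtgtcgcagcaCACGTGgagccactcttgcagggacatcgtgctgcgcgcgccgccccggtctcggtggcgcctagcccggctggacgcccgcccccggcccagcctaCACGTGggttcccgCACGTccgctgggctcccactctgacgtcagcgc
Ldhb: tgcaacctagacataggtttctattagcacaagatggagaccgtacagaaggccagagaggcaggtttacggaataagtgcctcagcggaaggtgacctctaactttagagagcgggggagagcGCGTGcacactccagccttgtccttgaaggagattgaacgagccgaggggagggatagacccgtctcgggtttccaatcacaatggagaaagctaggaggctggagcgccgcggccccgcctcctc
Eno2: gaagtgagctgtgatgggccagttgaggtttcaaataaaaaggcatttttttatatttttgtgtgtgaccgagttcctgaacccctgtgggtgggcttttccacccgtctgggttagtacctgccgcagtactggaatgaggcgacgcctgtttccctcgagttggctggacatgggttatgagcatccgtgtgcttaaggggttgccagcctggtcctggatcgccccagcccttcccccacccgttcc
Of 32841 promoter windows of this length, 38.6% hold a match, as do 14 of the 19 windows of the members. *Eno2* is the member without one. A match describes the letters and not a bound site.

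Paralog use differed between cell classes in both libraries. *Aldoc* made up most aldolase UMIs in astrocytes and few in neurons, and *Eno2* made up most enolase UMIs in neurons. In microglia *Hk2* exceeded *Hk1* and *Pfkl* exceeded the other phosphofructokinases. These orders also held per kb of gene span. A share below is one of UMIs, which compares classes for the same genes, and since nuclei yield intronic reads, so that longer genes can give more UMIs, shares per kb are given where genes are set against each other. *Ldha* had its highest level in endothelial cells and *Ldhb* in astrocytes, whose *Ldhb* intervals overlapped those of the next class.

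Hexokinase traps glucose in the cell by phosphorylation. *Hk1* (chr10:62268855-62379908, minus strand) was read in excitatory neurons at 61.8 CPM (59.8 to 63.8) in PS19 and 69.8 CPM (68.1 to 71.5) in PZKO. Its level was 53.7 and 52.7 CPM in inhibitory neurons, 85.2 and 90.6 CPM in astrocytes, 34.7 and 35.8 CPM in oligodendrocytes and 31.3 and 36.2 CPM in microglia. Choroid plexus cells had the highest level of *Hk1* in both libraries, 135 and 178 CPM. *Hk2*, a hexokinase induced in many activated cells, was at 587 and 524 CPM in microglia, 24.2 and 22.1 CPM in astrocytes and 0.804 and 0.558 CPM in excitatory neurons. *Hk1* thus made up 98.7% (98.3 to 99.1) and 99.2% (99.0 to 99.4) of the UMIs of *Hk1* and *Hk2* in excitatory neurons, 77.9% and 80.4% in astrocytes, 92.5% and 95.2% in oligodendrocytes and 5.06% (4.15 to 6.11) and 6.47% (5.40 to 7.67) in microglia. Per kb, with *Hk1* spanning 111 kb, the *Hk1* share was 97.2% and 98.2% in excitatory neurons, 61.0% and 64.6% in astrocytes, 84.6% and 89.8% in oligodendrocytes and 2.32% and 2.99% in microglia. Excitatory neurons, oligodendrocytes and astrocytes thus had more *Hk1* than *Hk2* on both scales, and microglia more *Hk2*. *Hk3*, a hexokinase of myeloid cells, was at 88.9 and 78.4 CPM in microglia and 0.123 and 0.0903 CPM in astrocytes.

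**Figure D1:**
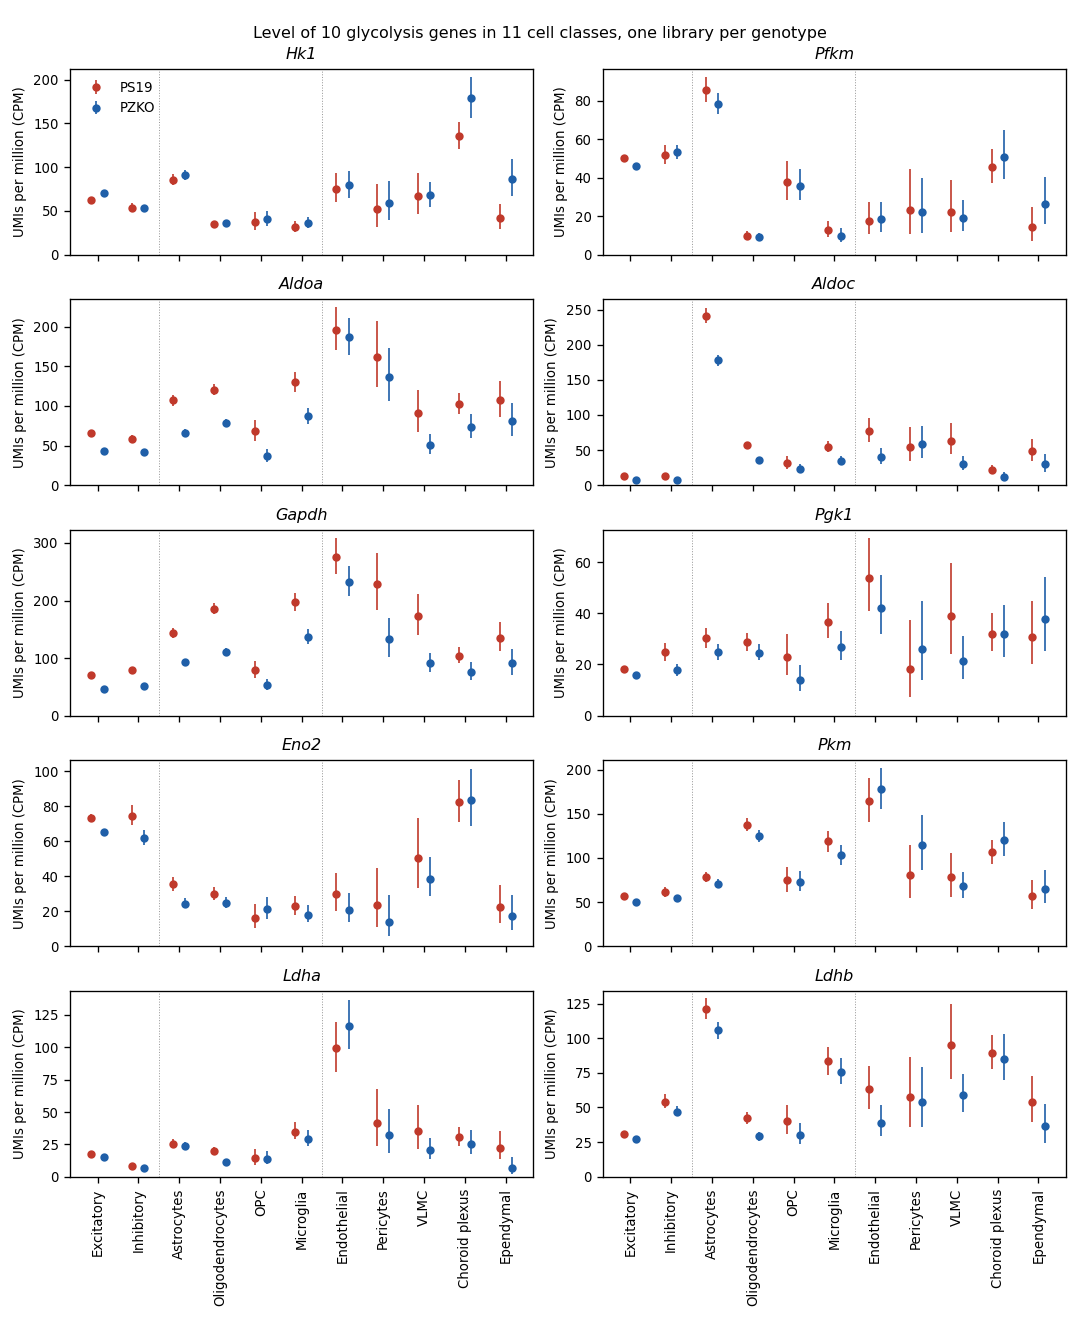
Level of each of the 10 members (CPM, linear axis) in 11 cell classes, red for PS19 and blue for PZKO, with exact Poisson 95% intervals for counting error. Dotted lines separate neurons, glia and other classes. Aldoc is highest in astrocytes (242 and 178 CPM) and Ldha in endothelial cells (99.2 and 117 CPM).

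Phosphofructokinase catalyses the committed step of the pathway. *Pfkm*, the muscle form (chr15:98092589-98132451, plus strand), was highest in astrocytes, at 85.8 CPM (79.5 to 92.4) in PS19 and 78.5 CPM (73.3 to 83.9) in PZKO. It was at 50.2 and 45.9 CPM in excitatory neurons, 52.0 and 53.2 CPM in inhibitory neurons and 37.7 and 35.7 CPM in oligodendrocyte precursors (OPC). Oligodendrocytes had 9.81 and 8.99 CPM, 11.4% and 11.5% of the astrocyte level, and microglia 12.9 and 9.80 CPM. With the profile of the whole library subtracted as RNA from other nuclei, no *Pfkm* was left in oligodendrocytes or microglia of either library. The part of such RNA in their *Pfkm* levels and shares was not tested. The intervals of oligodendrocytes and microglia lie below those of astrocytes and of both neuron classes in each library. Of the UMIs of the 3 phosphofructokinase genes, *Pfkm* held 27.1% and 20.7% in excitatory neurons, 28.2% and 24.7% in astrocytes and 14.9% and 13.5% in microglia. *Pfkp*, the platelet form, held 57.8% and 67.9% in excitatory neurons and 66.5% and 71.1% in astrocytes. *Pfkl*, the liver form, held 68.7% (62.9 to 74.1) and 63.1% (56.7 to 69.2) in microglia, against 15.1% and 11.4% in excitatory neurons and 5.31% and 4.15% in astrocytes. Per kb, the *Pfkp* share was 38.6% and 49.3% in excitatory neurons, beside 31.4% and 26.0% for *Pfkm* and 30.1% and 24.6% for *Pfkl*, so that no form held most of the family there. In astrocytes the shares per kb were 50.7% and 56.3% for *Pfkp*, 37.2% and 33.9% for *Pfkm* and 12.1% and 9.80% for *Pfkl*, and in microglia that of *Pfkl* was 82.9% and 80.1%. The *Pfkm* share of UMIs was higher in dentate granule-like nuclei than in excitatory neurons as a whole, 39.2% and 36.9%, where the *Pfkp* share was lower, 34.0% and 39.6%. The level of *Pfkm* itself was not higher there, 45.6 and 40.5 CPM.

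Aldolase splits fructose 1,6-bisphosphate into triose phosphates. *Aldoa* (chr7:126795234-126800751, minus strand), the widely expressed form, was in excitatory neurons at 66.1 CPM (64.0 to 68.2) in PS19 and 43.5 CPM (42.2 to 44.8) in PZKO. It was at 107 and 65.5 CPM in astrocytes, 120.1 and 78.2 CPM in oligodendrocytes, 130.0 and 87.0 CPM in microglia and 196 and 186 CPM in endothelial cells, the highest class. Its intervals in endothelial cells and pericytes overlapped in both libraries. *Aldoc* (chr11:78322968-78327781, plus strand) was in astrocytes at 242 CPM (231 to 253) in PS19 and 178 CPM (170.4 to 186) in PZKO. No interval of another class reached those of astrocytes. Excitatory neurons had 13.4 and 7.99 CPM of *Aldoc*, 5.55% and 4.48% of the astrocyte level, and inhibitory neurons 13.2 and 7.82 CPM. The *Aldoc* share of the aldolase pair was 69.3% (67.6 to 71.0) and 73.1% (71.4 to 74.8) in astrocytes, 16.9% and 15.5% in excitatory neurons, 18.5% and 15.9% in inhibitory neurons, 32.0% and 31.2% in oligodendrocytes and 29.7% and 28.4% in microglia. Per kb the share was 72.1% and 75.7% in astrocytes and 18.9% and 17.4% in excitatory neurons. Both astrocyte clusters were high in *Aldoc*, with 216 and 275 CPM in PS19 and 147 and 208 CPM in PZKO. Oligodendrocytes had 23.4% and 19.9% of the astrocyte level of *Aldoc*. None of the 9 astrocyte markers exceeded 7.01% and 7.04% there. In 1 alternative, the profile of a low-UMI cluster, described below, was subtracted. Little *Aldoc* was then left in oligodendrocytes, and none in excitatory neurons, inhibitory neurons, OPC or microglia of either library. The part of RNA from other cells in *Aldoc* outside astrocytes was not tested.

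**Figure D2:**
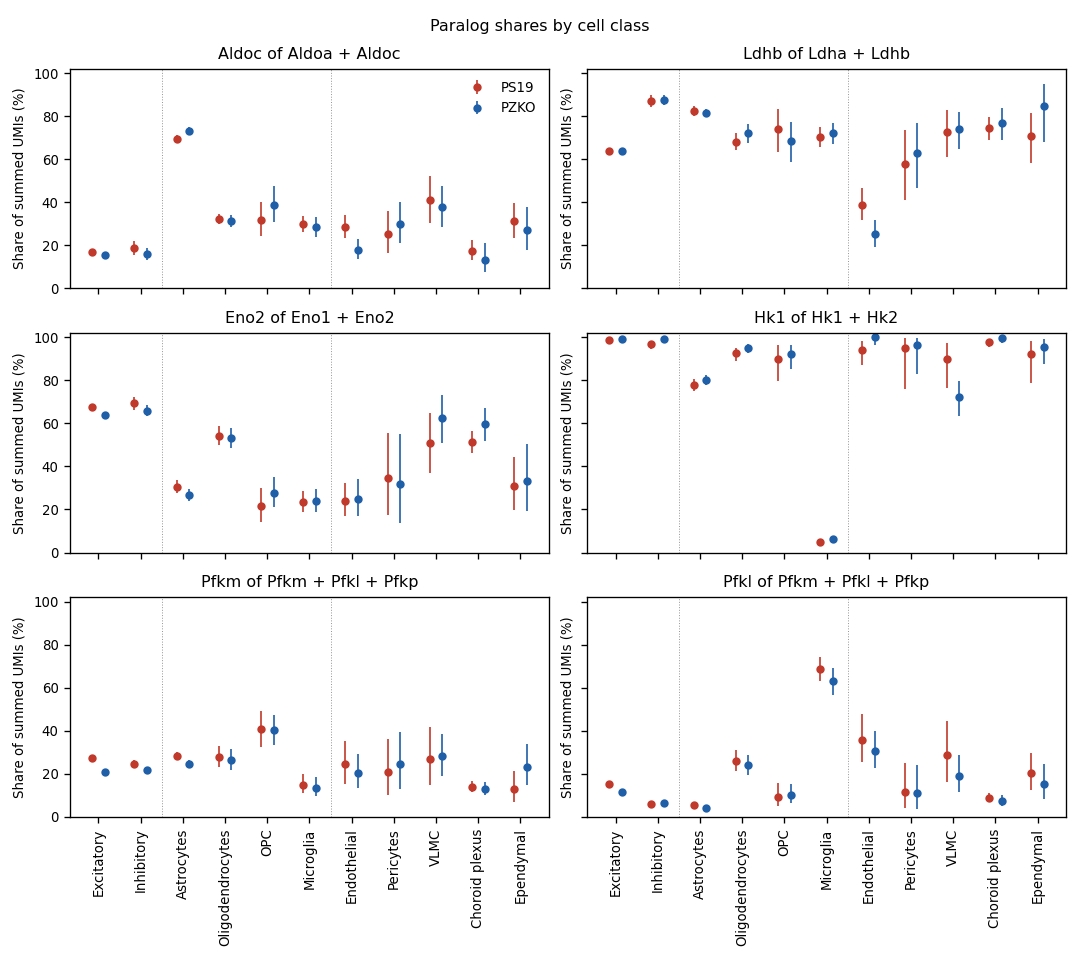
Share of the UMIs of a paralog family (percent) held by 1 gene in 11 cell classes, red for PS19 and blue for PZKO, with exact binomial 95% intervals for counting error. The Aldoc share is 69.3% and 73.1% in astrocytes and 16.9% and 15.5% in excitatory neurons, and the Hk1 share is 5.06% and 6.47% in microglia, where the Pfkl share is 68.7% and 63.1%.

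Glyceraldehyde-3-phosphate dehydrogenase (*Gapdh*, chr6:125161715-125166467, minus strand) and phosphoglycerate kinase (*Pgk1*, chrX:106187100-106203699, plus strand) carry out the next steps. *Gapdh* was lowest in excitatory neurons, at 70.4 CPM (68.3 to 72.6) in PS19 and 45.6 CPM (44.2 to 47.0) in PZKO. It was at 143 and 93.3 CPM in astrocytes, 186 and 111 CPM in oligodendrocytes, 197 and 137 CPM in microglia and 276 and 232 CPM in endothelial cells, the highest class. In PS19 its intervals in endothelial cells and pericytes overlapped. *Gapdh*, often used as a reference gene, differed 3.92-fold in PS19 and 5.10-fold in PZKO between its highest and lowest class. *Pgk1* varied less, 2.95-fold in PS19 and 3.03-fold in PZKO, with 18.3 and 15.8 CPM in excitatory neurons, 30.2 and 24.7 CPM in astrocytes and 53.8 and 42.2 CPM in endothelial cells. In its order over the 11 classes, all 10 pairs of neighbours had overlapping intervals in both libraries. An unnamed cluster held 349 and 259 nuclei with a median of 817 and 814 UMIs. Among all clusters it had the highest level of *Gapdh* (789.7 and 659.6 CPM), *Aldoa* (477 and 466 CPM) and *Aldoc* (369 and 265 CPM). How many of all genes were highest there was not counted.

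Enolase and pyruvate kinase complete the path to pyruvate. *Eno2* (chr6:124760053-124769673, minus strand) was in excitatory neurons at 73.1 CPM (70.9 to 75.3) in PS19 and 65.3 CPM (63.7 to 66.9) in PZKO, and at 74.6 and 61.8 CPM in inhibitory neurons. Astrocytes had 35.4 and 24.4 CPM, oligodendrocytes 30.1 and 24.7 CPM, microglia 23.0 and 18.1 CPM and OPC 16.2 and 21.3 CPM. The highest class was not a neuron: choroid plexus cells had 82.3 CPM (71.1 to 94.9) in PS19 and 83.6 CPM (68.4 to 101) in PZKO, overlapping both neuron classes in PS19. The *Eno2* share of *Eno1* and *Eno2* was 67.7% and 63.9% in excitatory neurons, 69.3% and 66.0% in inhibitory neurons, 30.4% and 26.6% in astrocytes, 54.4% and 53.3% in oligodendrocytes and 23.4% and 23.8% in microglia. Oligodendrocytes lay between neurons and the other glia. Per kb the share was 72.6% and 69.1% in excitatory neurons, 60.1% and 59.1% in oligodendrocytes and 35.6% and 31.4% in astrocytes. Within excitatory neurons the share was 53.9% and 53.6% in CA3-like, 68.4% and 67.3% in CA1-like and 70.1% and 66.9% in dentate granule-like nuclei. *Pkm*, pyruvate kinase (chr9:59656368-59679375, plus strand), was at 57.3 and 50.1 CPM in excitatory neurons, 78.3 and 71.0 CPM in astrocytes, 138 and 124 CPM in oligodendrocytes, 119 and 103 CPM in microglia and 164 and 178 CPM in endothelial cells.

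Lactate dehydrogenase subunits differed among the neurons themselves. *Ldhb* (chr6:142490249-142507957, minus strand) was highest in astrocytes, at 121 CPM (114 to 129) in PS19 and 106 CPM (99.7 to 112) in PZKO. It was at 54.3 and 47.0 CPM in inhibitory neurons and 30.6 and 27.4 CPM in excitatory neurons, the lowest class. In the order of *Ldhb* over the 11 classes, all 10 pairs of neighbours had overlapping intervals in both libraries. Astrocytes overlapped vascular leptomeningeal cells in PS19 and choroid plexus cells in PZKO. *Ldha* (chr7:46841475-46855627, plus strand) was at 17.5 and 15.5 CPM in excitatory neurons, 8.02 and 6.62 CPM in inhibitory neurons and 25.6 and 23.9 CPM in astrocytes, and highest in endothelial cells, at 99.2 CPM (81.3 to 119.8) in PS19 and 117 CPM (98.8 to 137) in PZKO. The *Ldhb* share was 87.1% (84.0 to 89.8) and 87.7% (85.1 to 89.9) in inhibitory neurons, 63.6% and 63.9% in excitatory neurons, 82.6% and 81.5% in astrocytes and 38.9% (31.6 to 46.5) and 25.1% (19.3 to 31.7) in endothelial cells. Among excitatory neurons it was lowest in CA3-like nuclei, 47.6% (41.1 to 54.3) and 52.4% (46.3 to 58.6). CA1-like nuclei had 54.8% (50.1 to 59.5) and 58.2% (53.7 to 62.7), with intervals that overlapped those of CA3-like nuclei in both libraries. Dentate granule-like nuclei had 66.2% and 69.5%. CA3-like nuclei also had little *Ldhb*, 13.4 and 13.5 CPM. Neurons together had an *Ldhb* share of 67.4% and 67.7% and glia of 76.4% and 77.8%, and 62.3% and 62.6% and 72.2% and 73.7% per kb, so that the B subunit held the larger part in both. Per kb the share was 42.1% and 46.8% in CA3-like and 49.2% and 52.7% in CA1-like nuclei.

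Across the enzymes, levels were compared per kb of gene span. On this scale *Gapdh* led in excitatory neurons, at 14.8 and 9.60 CPM per kb, and *Hk1* was lowest, at 0.556 and 0.629 CPM per kb. This order depends on the division by span, which is 4.75 kb for *Gapdh* and 111 kb for *Hk1*. By CPM, *Eno2* led there in PS19. In PZKO *Hk1* led by CPM, at 69.8 CPM beside 45.6 CPM for *Gapdh*. In astrocytes *Aldoc* led, at 50.2 and 37.0 CPM per kb. In oligodendrocytes *Gapdh* led, at 39.2 and 23.3 CPM per kb, and *Pfkm* was lowest. By CPM, *Pkm* led there in PZKO. The 10 members together held 459 and 387 CPM in excitatory neurons, 479 and 394 CPM in inhibitory neurons, 953 and 756 CPM in astrocytes, 666 and 483 CPM in oligodendrocytes and 723 and 558 CPM in microglia. Astrocytes were the highest of these listed classes in both libraries, and the sum was lower in PZKO in each. Among all classes compared, endothelial cells held the highest sum, at 1053 CPM in PS19 and 954 CPM in PZKO, above astrocytes in both libraries.

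Set against glia (astrocytes, oligodendrocytes, OPC and microglia together), neurons had more *Eno2*, *Pfkm* and *Hk1* and less of the other 7 members per UMI. *Eno2* was at 73.3 CPM in neurons and 30.1 CPM in glia in PS19, and at 64.8 and 23.5 CPM in PZKO, a log2 ratio of 1.29 (1.17 to 1.41) and 1.47 (1.35 to 1.59). *Aldoc* was at 13.4 and 122 CPM in PS19 and at 7.96 and 92.4 CPM in PZKO, a log2 ratio of -3.19 (-3.30 to -3.08) and -3.54 (-3.65 to -3.42). These members stand at the ends of the order. With the profile of the whole library subtracted as RNA from other nuclei, the ratio was 2.02 and 2.42 for *Eno2* and -3.81 and -4.17 for *Aldoc*. With that of the low-UMI cluster subtracted it was 2.74 and 3.37 for *Eno2*, and no *Aldoc* UMIs were left in neurons. The log2 ratio was 0.34 and 0.24 for *Pfkm*, 0.20 and 0.21 for *Hk1*, -0.55 and -0.40 for *Ldha*, -0.66 and -0.59 for *Pgk1*, -0.80 and -0.71 for *Aldoa*, -0.91 and -0.92 for *Pkm*, -1.19 and -1.14 for *Ldhb* and -1.20 and -1.14 for *Gapdh*. Of the 10 members 7 were lower in neurons, where 64.2% and 63.5% of genes with at least 100 UMIs were lower. By 2-fold or more, 3 members (*Aldoc*, *Gapdh* and *Ldhb*) were lower, against 27.6% and 27.1% of genes, and 1 (*Eno2*) was higher, against 17.0% and 18.1%. These counts are near the background, and the median over the members was -0.73 and -0.65 beside -0.35 and -0.34 over all genes.

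The direction depends on the denominator, since neuronal nuclei had a median of 18866.5 and 28081 UMIs and glial nuclei of 3907 and 5174. Counted per nucleus, 9 of the 10 members were higher in neurons in both libraries, and *Aldoc* was lower, where 86.8% and 87.6% of all genes were higher. The change of denominator moves every gene by the same amount, so the count is no property of the members. Per 1000 nuclei, *Gapdh* gave 1511 UMIs in PS19 neurons and 757 in glia, and *Aldoc* 283 and 562. In PZKO the values were 1440.5 and 633 for *Gapdh* and 248 and 573 for *Aldoc*. With the profile of the low-UMI cluster subtracted, *Aldoa*, *Pgk1* and *Ldha* were also above 0 in PZKO neurons per UMI (0.38, 0.18 and 0.47 on the log2 scale), so that 6 of the 9 members with a value were, against 38.7% of all genes.

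**Figure D3:**
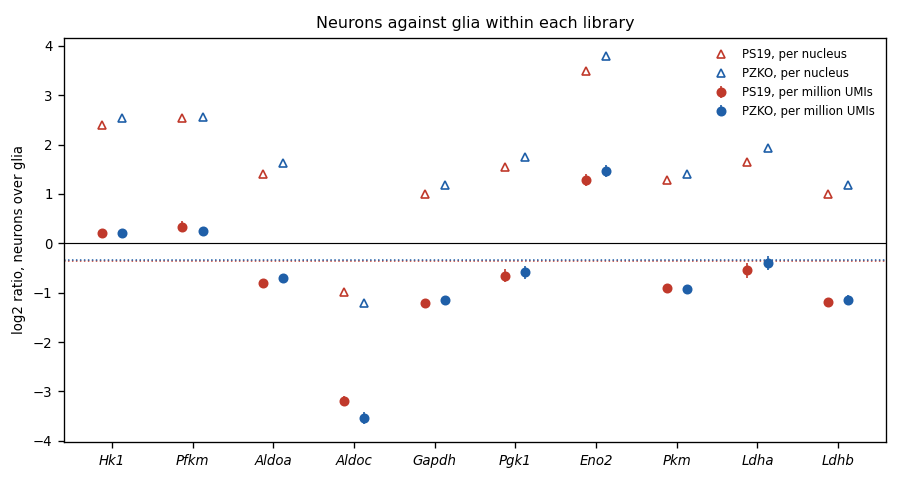
log2 ratio of neurons over glia for each member, red for PS19 and blue for PZKO. Filled circles are ratios of CPM with exact 95% intervals for counting error, open triangles are ratios per nucleus, and dotted lines are medians of CPM ratios over all genes. Eno2, Hk1 and Pfkm lie above 0 by both measures, and Aldoc lies below 0 by both.

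The glial classes did not contribute alike. Against astrocytes, excitatory neurons had less of 9 members, where 59.5% and 58.6% of all genes were lower. *Pfkm* had log2 ratios of -0.77 and -0.77 and *Hk1* of -0.46 and -0.38 there, and *Eno2*, the exception, of 1.05 and 1.42. Against oligodendrocytes, excitatory neurons had more *Pfkm* (2.36 and 2.35), *Eno2* (1.28 and 1.40) and *Hk1* (0.83 and 0.97). They had less of 7 members in PS19 and of 6 in PZKO, where 52.6% and 51.9% of all genes were lower. The level of *Ldha* in oligodendrocytes was 113% of that in excitatory neurons in PS19 and 72.1% in PZKO. In PS19 the intervals of these classes overlapped, so a change of side is not resolved by the counts. *Pfkm* and *Hk1* were thus lower in neurons than in astrocytes and higher than in oligodendrocytes.

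Between the libraries, *Aldoa*, *Aldoc* and *Gapdh* were lower in PZKO than in PS19 in all 6 neuronal and glial classes. In excitatory neurons the log2 ratio of PZKO over PS19 was -0.75 (-0.89 to -0.60) for *Aldoc*, -0.63 (-0.69 to -0.56) for *Gapdh* and -0.60 (-0.67 to -0.54) for *Aldoa*. *Hk1* was higher in PZKO, at 0.18 (0.12 to 0.24), and the other 6 members lay between -0.21 and -0.13. All 9 excitatory clusters had *Aldoa*, *Aldoc* and *Gapdh* below 0, from -1.07 to -0.38 for *Aldoa*, from -1.30 to -0.05 for *Aldoc* and from -0.98 to -0.39 for *Gapdh*, and all 9 had *Hk1* above 0, from 0.02 to 0.26. In inhibitory neurons the ratio was -0.75 (-1.14 to -0.36) for *Aldoc*, -0.63 (-0.78 to -0.48) for *Gapdh*, -0.49 (-0.66 to -0.31) for *Aldoa* and -0.03 (-0.20 to 0.14) for *Hk1*. Of the 10 members 9 were lower in PZKO in excitatory neurons (background 62.0% of genes with at least 100 UMIs) and 9 in inhibitory neurons (57.9%). The background by gene span, higher for short genes, is given below. By 1.5-fold or more, 3 members were lower in excitatory neurons (background 4.99%) and 2 in inhibitory neurons (4.37%). These are among *Aldoa*, *Aldoc* and *Gapdh*, the shortest members, and the background past 1.5-fold was not split by span.

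Astrocytes had log2 ratios of -0.71 (-0.85 to -0.56) for *Aldoa*, -0.62 (-0.74 to -0.49) for *Gapdh*, -0.54 (-0.78 to -0.29) for *Eno2* and -0.44 (-0.53 to -0.35) for *Aldoc*, with *Hk1* at 0.09 (-0.05 to 0.23). Oligodendrocytes had their lowest ratio for *Ldha*, -0.83 (-1.17 to -0.48), from 19.8 CPM in PS19 to 11.2 CPM in PZKO, and all 3 oligodendrocyte clusters had it below 0, from -0.94 to -0.45. *Gapdh* was at -0.75 (-0.86 to -0.64), *Aldoc* at -0.67 (-0.87 to -0.48), *Aldoa* at -0.62 (-0.75 to -0.49) and *Ldhb* at -0.54 (-0.76 to -0.32) there. Microglia had *Aldoc* at -0.67 (-1.02 to -0.33), *Aldoa* at -0.58 (-0.80 to -0.36) and *Gapdh* at -0.52 (-0.70 to -0.35). In OPC, where 7 members had at least 100 UMIs over both libraries, *Aldoa* was at -0.88 (-1.31 to -0.45) and *Gapdh* at -0.57 (-0.94 to -0.19), while *Aldoc*, from 31.6 to 23.5 CPM, was at -0.43 (-1.02 to 0.17), an interval that holds 0. Of all 10 members 9 were lower in PZKO in astrocytes (background 58.9%), oligodendrocytes (55.8%) and microglia (53.1%), and 8 in OPC (53.3%). Here too the background was higher for short genes, as given below. By 1.5-fold or more, 2 were lower in astrocytes (background 5.97%), 4 in oligodendrocytes (5.0%), 2 in OPC (5.47%; 1 of them, *Pgk1*, with under 100 UMIs) and 1 in microglia (3.78%). This background was not split by span. The oligodendrocyte clusters held 1289 and 673, 888 and 754, and 395 and 824 nuclei. Within them 0, 3 and 2 members with at least 100 UMIs were lower by 1.5-fold. *Pfkm* was above 0 in 2 of the 3 clusters, and *Pgk1*, *Eno2* and *Pkm* in 1 each. The part of this mix was not tested. None was higher by 1.5-fold in these 6 classes, where 2.36% of genes were in excitatory neurons, 1.18% in inhibitory neurons, 1.31% in astrocytes, 1.34% in oligodendrocytes, 3.31% in OPC and 2.18% in microglia. With the profile of the low-UMI cluster subtracted, *Gapdh* in inhibitory neurons turned to 0.13 and *Aldoc* in oligodendrocytes to 0.82. The value for *Aldoc* is a ratio of small remainders, since little *Aldoc* was left in oligodendrocytes of either library. None was left in excitatory neurons, inhibitory neurons, OPC or microglia of either library, so *Aldoc* had no ratio there after this subtraction.

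**Figure D4:**
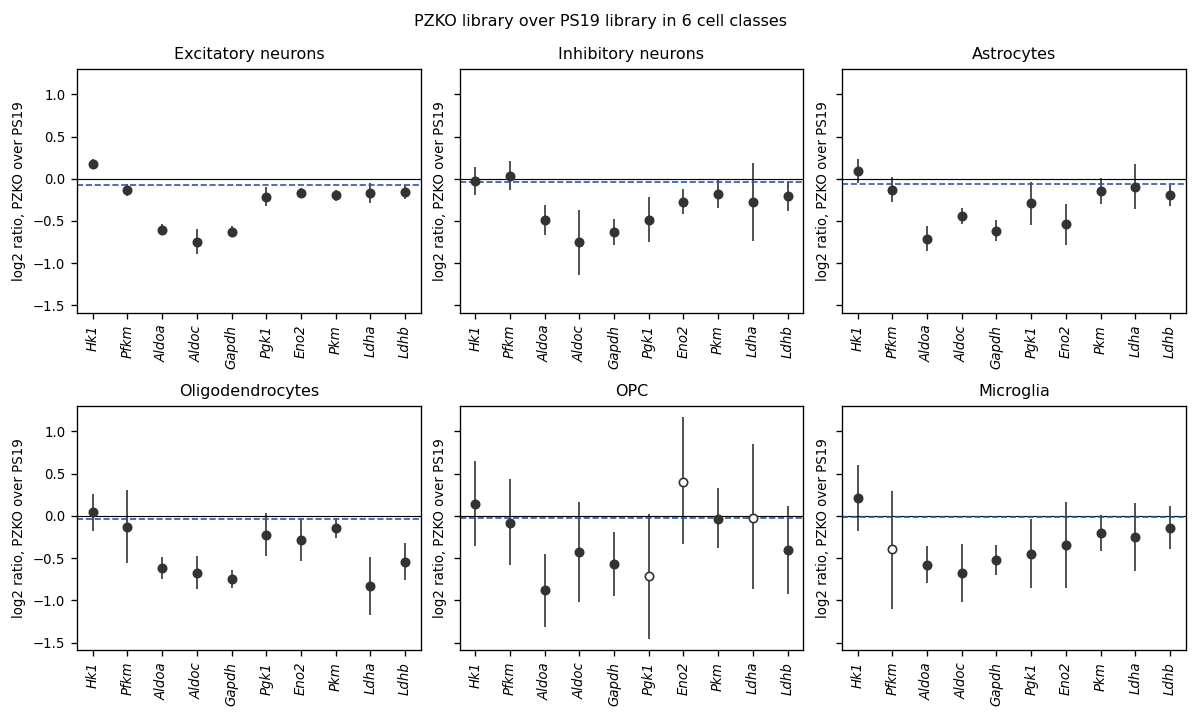
log2 ratio of PZKO over PS19 for each member in 6 cell classes, with exact 95% intervals for counting error. Open circles have under 100 UMIs over both libraries, and the dashed line is the median over all genes. Aldoa, Aldoc and Gapdh lie below 0 in every panel.

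The median ratio over the members with at least 100 UMIs was -0.18 in excitatory neurons, -0.27 in inhibitory neurons, -0.24 in astrocytes, -0.41 in oligodendrocytes, -0.41 in OPC (7 members) and -0.34 in microglia (9 members). The interval of the middle member, averaged over a middle pair, held 0 in inhibitory neurons (-0.58 to 0.03), OPC (-0.92 to 0.12) and microglia (-0.86 to 0.16). It lay below 0 in excitatory neurons (-0.27 to -0.09), astrocytes (-0.43 to -0.05) and oligodendrocytes (-0.65 to -0.18). The median over all genes lay between -0.07 and -0.02. Within single clusters the median over members with at least 100 UMIs ran from -0.40 to -0.22 in excitatory neurons. In oligodendrocyte clusters it ran from -0.35 to -0.30. The values of both whole classes, -0.18 and -0.41, lie outside these ranges. The clusters were mixed differently in each library, and the part of this mix was not tested. Outside these classes, endothelial cells had *Aldoc* at -0.94 (-1.46 to -0.42), from 77.9 to 40.7 CPM, *Gapdh* at -0.25 (-0.48 to -0.01), *Aldoa* at -0.08 (-0.35 to 0.20), *Ldha* at 0.23 (-0.13 to 0.60) and *Ldhb* at -0.69 (-1.24 to -0.14). That class joined clusters that differed. In one (251 and 255 nuclei) the median over 5 members with at least 100 UMIs was -0.54 (all genes 0.02). In the other (60 and 52 nuclei) it was 0.24 over 4 members (all genes 0.01). Choroid plexus cells had *Hk1* at 0.40 (0.15 to 0.65) and *Gapdh* at -0.45 (-0.81 to -0.10). *Aldoc* was at -1.11 (-1.46 to -0.77) in dentate granule-like, -0.95 (-1.49 to -0.41) in CA3-like and -0.53 (-0.99 to -0.07) in CA1-like nuclei, with overlapping intervals.

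The ratios went with gene span. In excitatory neurons the median over all genes was -0.30 under 5 kb, -0.15 from 5 to 20 kb, -0.03 from 20 to 100 kb and 0.09 at 100 kb and over. *Gapdh* (4.75 kb), *Aldoc* (4.81 kb) and *Aldoa* (5.52 kb) are the shortest members and had ratios below the median of their span. *Hk1* (111 kb) is the longest, and the member above 0. In astrocytes the medians were -0.41, -0.19, -0.02 and 0.13, and *Aldoc* was close to that of its span. Other gene groups moved too: in excitatory neurons ribosomal protein genes had a median of -0.47 (80 of 80 below 0), nuclear-encoded respiratory chain genes a median of -0.39 (70 of 71) and genes of the mitochondrial genome a median of -0.71 (13 of 13). Of all genes there 62.0% were below 0. By span the share was 81.7% under 5 kb, 76.3% from 5 to 20 kb, 56.8% from 20 to 100 kb and 32.3% above. Under 5 kb it was 88.3% in inhibitory neurons, 89.7% in astrocytes, 87.2% in oligodendrocytes, 92.7% in OPC and 86.7% in microglia. From 5 to 20 kb it was 75.7%, 77.4%, 74.0%, 71.4% and 70.1% in the same order. At 100 kb and over it was 27.7%, 24.4%, 23.6%, 38.1% and 22.6%. All members except *Hk1*, *Pfkm* and *Pkm* span under 20 kb. The summed level of 6 choroid plexus markers was 836 and 86.1 CPM in oligodendrocytes (12.3% and 1.53% of that in choroid plexus cells), with *Ttr* reaching the highest percentage of its own level, and 178 and 25.6 CPM in excitatory neurons. The part of gene span, RNA from other cells and mitochondrial RNA in the ratios of *Aldoa*, *Aldoc* and *Gapdh* was not tested, and with 1 library per genotype library and genotype cannot be told apart.

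**Figure D5:**
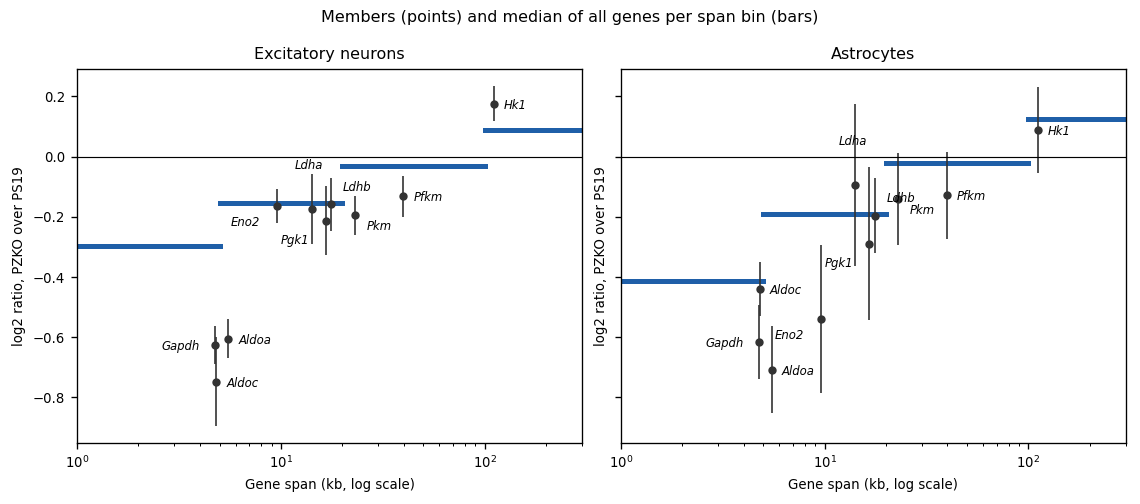
log2 ratio of PZKO over PS19 of the 10 members (points with exact 95% intervals for counting error) against gene span (kb, log axis) in excitatory neurons and astrocytes. Blue bars are medians over all genes of that span. The 3 members near 5 kb lie lowest in excitatory neurons, and Hk1 at 111 kb lies above 0 in both panels.

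In excitatory neurons, paralog shares were close between the libraries for lactate dehydrogenase and less so for enolase and phosphofructokinase. The class held different nuclei in each library. Dentate granule-like nuclei were 1009 of 2759 in PS19 and 513 of 3000 in PZKO, and one cluster without a subclass name held 336 and 633 nuclei and another 92 and 244. The *Ldhb* share of excitatory neurons was 63.6% (61.8 to 65.4) and 63.9% (62.4 to 65.4). The *Eno2* share there was 67.7% (66.5 to 68.8) and 63.9% (63.0 to 64.9), with a log2 ratio of 0.07 (0.00 to 0.15) for *Eno1* and -0.16 (-0.22 to -0.11) for *Eno2*. The *Pfkm* share was 27.1% (26.3 to 28.0) and 20.7% (20.2 to 21.3), and *Pfkp* (69.0 kb) had a log2 ratio of 0.49 (0.45 to 0.54) beside -0.13 (-0.20 to -0.06) for *Pfkm*. Within clusters, the *Pfkm* share was lower in PZKO in 9 of 9 excitatory clusters, with PZKO minus PS19 from -7.08 to -2.33 percentage points, and the *Pfkp* share was higher in 9. The *Eno2* share was lower in 7 of 9, with PZKO minus PS19 from -12.1 to 1.90 points, and in CA1-like and CA3-like nuclei it differed little, as given above. The *Ldhb* share was lower in 4 of 9. With equal weights of the clusters the shares were 27.2% and 22.4% for *Pfkm* and 69.8% and 66.2% for *Eno2*. The values by cluster were added after the data were seen. In endothelial cells the *Ldhb* share differed more, 38.9% and 25.1%. That class joined clusters with median ratios of opposite sign, and its share was not taken apart by cluster.

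Of 20 other glycolysis genes, 14 had at least 100 UMIs in excitatory neurons, and 9 of these were lower in PZKO, beside 62.0% of all genes. Their median ratio was -0.06, and the highest ratio was 0.49 (*Pfkp*). In astrocytes 6 of 9 were lower (median -0.15, all genes 58.9%), in oligodendrocytes 8 of 9 (-0.22, 55.8%) and in microglia 6 of 8 (-0.28, 53.1%). The counts in excitatory neurons and astrocytes are near the background. In excitatory neurons the list medians were -0.06 for regulators, -0.02 for glucose and lactate transporters, -0.06 for pyruvate entry into mitochondria, 0.06 for glycogen genes, -0.11 for the pentose phosphate pathway and -0.08 for the hypoxia response. *Bsg*, which chaperones lactate transporters to the membrane, was the lowest transporter gene there at -0.54.

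Between neurons and glia, the median log2 ratio in PS19 and PZKO was -0.27 and -0.12 for the other glycolysis enzymes, -0.84 and -0.67 for regulators, -1.07 and -1.15 for transporters, 0.04 and 0.12 for pyruvate entry, -1.86 and -2.01 for glycogen, -1.35 and -1.29 for the pentose phosphate pathway and -1.36 and -1.15 for the hypoxia response. *Slc2a3*, the neuronal glucose transporter, was at 74.6 and 76.7 CPM in excitatory neurons and 10.1 and 9.12 CPM in astrocytes. *Slc2a1*, the glucose transporter of the blood-brain barrier, was at 1059 and 1095 CPM in endothelial cells and 7.15 and 7.48 CPM in excitatory neurons.

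Over the 11 classes of both libraries (22 points, which share library and depth), the gene outside glycolysis most like *Aldoc* in level was *Gfap* (Pearson's r of 0.97 among 12940 candidates), and that most like *Gapdh* was *Hspa8* (0.97). Others were *Eif1* for *Aldoa* (0.95), *Dclk1* for *Pfkm* (0.92), *Snx3* for *Ldha* (0.91), *Prpf8* for *Pkm* (0.91), *Entpd3* for *Eno2* (0.88), *Sap18* for *Pgk1* (0.88) and *Grina* for *Ldhb* (0.86). The pair of members most alike was *Aldoa* and *Gapdh*, with r of 0.93. The genes *Hk1os*, *Senp1*, *Fam57b* and *Iffo1* overlap *Hk1*, *Pfkm*, *Aldoa* and *Gapdh* on the opposite strand. On the same strand, *Gm26513* overlaps *Pfkm* and *Gm49759* overlaps *Pkm*. Reads of *Aldoa*, *Gapdh*, *Pgk1* and *Ldha* can be shared with near copies. So can those of *Eno1*, with *Eno1b* (125 and 113 UMIs) counted apart. The part of such reads in the *Eno2* share was not tested.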

How the data were processed

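Single nuclei of 2 libraries were analysed. Per the labels, the authors used Cell Ranger 7.0.1 with mm10, while the deposited matrices name 8.0.1 in their headers. The deposited values are raw whole-number UMI counts without normalization, with 11469 nuclei and 116488513 UMIs in PS19 and 10920 nuclei and 171167884 UMIs in PZKO. Nuclei with under 600 UMIs, under 300 genes or over 5% mitochondrial UMIs were left out, and the nuclei with the highest Scrublet scores were removed as doublets, at 0.8% per 1000 nuclei (8.37% and 8.11%). Clusters were found with scanpy 1.11.5 from 2000 variable genes that held no gene of the glycolysis lists, 30 principal components, 20 neighbours and Leiden resolution 1, and named from marker lists with thresholds set after the clusters were seen. Unnamed clusters held 6.60% and 6.41% of nuclei. UMIs were summed per class and scaled to CPM, with exact Poisson, Clopper-Pearson and conditional binomial 95% intervals. Ratios and their intervals were checked on simulated Poisson counts. These hold counting error only, so the check cannot speak to differences between mice, libraries or nuclei. Genes named are the members, their paralogs, markers, the extremes of a list and the gene most like a member (1 of these and 1 list extreme are not reported here), and Hk3, Slc2a1 and Slc2a3 were chosen after their values were seen. The members and lists were chosen with earlier results of these data known. Alternatives were other filters, clustering, ambient subtraction, weights and scaling (edgeR 4.0.16, DESeq2 1.42.0).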

Additional observations from a re-analysis of the deposited data

How the results depend on the processing

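Stricter filters on nuclei and a Leiden resolution of 0.5 kept the direction of the median ratios between genotypes and of the share differences between neurons and glia, and the counts of members within 1.5-fold. TMM scaling, DESeq2 size factors and means over nuclei did so for the medians and counts between genotypes. Per nucleus, an alternative chosen after seeing the data, the members higher in neurons were 9 in PS19 and 9 in PZKO instead of 3 (all genes 86.8% and 87.6%, every gene being shifted alike), with log2 ratios of neurons over glia of 1.40 and 1.62 for Aldoa, 0.997 and 1.19 for Gapdh, 1.54 and 1.74 for Pgk1, 1.29 and 1.41 for Pkm, 1.65 and 1.93 for Ldha, 1.01 and 1.19 for Ldhb. Subtracting the profile of the low-UMI cluster, also chosen after seeing the data, left 6 of 9 members with a value higher in PZKO neurons (all genes 38.7%), with Aldoa at 0.38, Pgk1 at 0.18 and Ldha at 0.47. Between genotypes it turned Gapdh in inhibitory neurons to 0.13 and Aldoc in oligodendrocytes, a ratio of small remainders, to 0.82. No Aldoc was left in excitatory neurons, inhibitory neurons, OPC or microglia, so that it had no ratio there. The subtraction left 5 of the 6 members with a value below 0 in OPC (8 of 10 before, all genes 53.6%). It gave a median of -0.05 in inhibitory neurons and of -0.32 in excitatory neurons. Equal weights of the excitatory clusters gave -0.28 there. With a minimum of 20 UMIs per gene, the genes lower by 1.5-fold or more were 8.46% in excitatory neurons, 8.81% in inhibitory neurons, 10.1% in astrocytes, 9.45% in oligodendrocytes, 13.2% in OPC and 8.47% in microglia. The share of neurons minus that of glia is given in percentage points, PS19 before PZKO. In the main setting it was -34.9 and -41.1 for Aldoc and 32.7 and 31.1 for Eno2. For Hk1 it was 63.2 and 55.3, and for Ldhb -8.99 and -10.1. With the library profile subtracted it was -40.9 and -47.3 for Aldoc, 44.0 and 44.0 for Eno2 and 70.7 and 62.7 for Hk1. With the low-UMI profile it was -60.0 and -79.3 for Aldoc and 51.0 and 51.6 for Eno2. For Hk1 it was then 70.8 and 64.2, and for Ldhb -14.2 and -17.2. Without doublet removal it was 60.8 and 53.3 for Hk1. The cause of these differences was not tested. No paired analysis was possible because each genotype has 1 library. Counting intervals do not cover differences between mice, and low-UMI classes such as pericytes and ependymal cells limit what can be seen there.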
